A study of Mus musculus with 15 samples.

Results

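The 10 genes described here are read as markers or effectors of alternative macrophage activation: Arg1, Arg2, Tgm2, Il4ra, Mrc1, Clec10a, Mgl2, Retnla, Ccl24 and Pdcd1lg2. They were taken by their symbols from a table of 23996 genes measured by RNA-seq in bone marrow-derived macrophages (BMDM), and all 10 symbols were found. The set was chosen from measured values of this same table, in which Arg1 stood out in NELF-deficient cells, so the levels below are a description and carry no test. Only 6 of the 10 had a mean of at least 0.5 FPKM (fragment counts scaled to transcript length and library size) over the groups, as did 11258 genes of the table. Those 6 are Arg1, Arg2, Tgm2, Il4ra, Mrc1 and Clec10a.

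BMDM were grown from bone marrow of C57BL/6 mice for 5 days with L929 cell supernatant as the source of macrophage colony-stimulating factor, and no IL-4 or IL-13 is named in the culture. The 15 libraries fell into 5 groups of 3: wild-type (WT) cells at rest and after 0.5 h or 1 h of lipopolysaccharide (LPS, 10 ng/ml, from Escherichia coli), and Nelfb KO cells at rest and after 0.5 h of LPS. Nelfb KO mice were Nelfb fl/fl with Lyz2-Cre, which deletes in myeloid cells from the lysozyme M locus. WT mice carried Lyz2-Cre alone, so Cre is shared by all groups. The number of Cre alleles, the age of the mice, and whether the libraries of a group came from separate mice are not given in the sources used here. No Nelfb KO group at 1 h was part of this set.

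NELF-B is a subunit of the negative elongation factor complex, which holds RNA polymerase II shortly after it has started a gene, and the design asks how its loss changes macrophage transcripts at rest and early in the LPS response. Nelfb itself was listed at 21.9, 19.7 and 17.5 FPKM in WT cells at 0, 0.5 and 1 h, and at 5.65 and 5.55 FPKM in Nelfb KO cells at 0 and 0.5 h. The deleted gene was therefore low in both groups labelled KO but not at 0. The values are group averages as deposited, with no value per library, so no SD, no interval and no test over samples could be given, and where 2 groups are ordered below it is not known whether they differ beyond the spread between libraries. In bulk samples, fewer cells of a type and less RNA per cell cannot be told apart.

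Alternative activation is the state that macrophages enter when IL-4 or IL-13 binds the IL-4 receptor alpha chain, whose Janus kinases phosphorylate STAT6, which then enters the nucleus and switches on a characteristic set of genes in the mouse. These include arginase 1, which splits arginine into ornithine and urea, as well as lectins that take up glycoproteins, secreted proteins such as RELM-alpha and chemokines such as CCL24. Arginase competes for arginine with the inducible nitric oxide synthase of classically activated macrophages. Arg1 can also be switched on without STAT6, for example through Toll-like receptors in infected macrophages.

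The coding sequences show which members could share reads, which matters because the methods state that uniquely mapped reads alone were preserved. Arginase 1 (cytosolic) and arginase 2 (mitochondrial) catalyse the same reaction, and their longest coding sequences, of 969 and 1062 bases, are 62.6% identical. Of their 50-base runs, 0% are shared, and the longest shared run is 12 bases long. It is shown in capitals with 30 coding bases on each side, from GENCODE M21 transcripts on GRCm38. In Arg1 the run is on the minus strand at chr10:24916801-24916812, and in Arg2 on the plus strand at chr12:79150789-79150800.
Arg1: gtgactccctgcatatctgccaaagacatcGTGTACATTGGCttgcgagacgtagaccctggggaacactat
Arg2: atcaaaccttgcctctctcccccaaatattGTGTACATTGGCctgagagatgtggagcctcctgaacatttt
This comparison covers the longest coding sequences alone, and the untranslated parts of the transcripts were not compared.

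The C-type lectins Clec10a (also called MGL1) and Mgl2 are neighbours on chromosome 11 and much closer copies. Their coding sequences, of 924 and 1143 bases, are identical at 811 of 914 aligned bases (88.7%), and 27.7% of the 50-base runs of Clec10a and 22.1% of those of Mgl2 occur in the other gene. The longest shared run, of 183 bases, is printed in capitals for both genes with 30 coding bases on each side. Its exons lie on the plus strand within chr11:70169822-70170189 for Clec10a and within chr11:70136337-70136699 for Mgl2.
Clec10a: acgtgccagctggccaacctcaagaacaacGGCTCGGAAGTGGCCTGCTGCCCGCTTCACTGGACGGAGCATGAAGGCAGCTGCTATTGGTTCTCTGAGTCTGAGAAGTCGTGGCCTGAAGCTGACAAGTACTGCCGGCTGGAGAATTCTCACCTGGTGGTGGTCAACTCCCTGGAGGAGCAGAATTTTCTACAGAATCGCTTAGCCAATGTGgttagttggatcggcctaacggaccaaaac
Mgl2: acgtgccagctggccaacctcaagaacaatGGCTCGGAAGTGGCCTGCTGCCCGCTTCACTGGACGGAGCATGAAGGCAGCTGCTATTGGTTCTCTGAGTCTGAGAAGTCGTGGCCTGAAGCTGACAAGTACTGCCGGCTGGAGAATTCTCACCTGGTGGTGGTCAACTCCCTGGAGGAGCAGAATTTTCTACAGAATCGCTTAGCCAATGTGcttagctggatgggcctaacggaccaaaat
Levels of these lectins are therefore uncertain to the extent that such reads were dropped or assigned to the wrong gene.

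Promoter windows of RefSeq (GRCm38.p6, 250 bases before to 50 after each start) were matched for 5 of the 10 members, namely Mrc1, Il4ra, Mgl2, Retnla and Pdcd1lg2. Entries for Arg1, Arg2, Clec10a, Tgm2 and Ccl24 were not matched. Retnla and Pdcd1lg2, known as STAT6 targets and listed here at or close to 0, are printed beside Mrc1, the most abundant of the 5, up to the last base before the first annotated transcribed base. Capitals mark a match to the STAT6-type palindrome (TTC, any 4 bases, then GAA), searched on both strands. The runs are on the plus strand, at chr16:48842359-48842550 for Retnla, chr19:29410669-29410918 for Pdcd1lg2 and chr2:14229164-14229391 for Mrc1.
Retnla: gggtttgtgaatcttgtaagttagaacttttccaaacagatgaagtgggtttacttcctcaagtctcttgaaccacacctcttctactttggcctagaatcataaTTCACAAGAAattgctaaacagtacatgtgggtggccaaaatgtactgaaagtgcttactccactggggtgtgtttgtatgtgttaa
Pdcd1lg2: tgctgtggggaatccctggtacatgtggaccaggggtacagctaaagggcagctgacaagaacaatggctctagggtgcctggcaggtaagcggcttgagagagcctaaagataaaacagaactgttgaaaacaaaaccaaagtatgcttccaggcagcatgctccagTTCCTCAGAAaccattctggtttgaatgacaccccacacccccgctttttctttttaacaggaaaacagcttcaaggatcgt
Mrc1: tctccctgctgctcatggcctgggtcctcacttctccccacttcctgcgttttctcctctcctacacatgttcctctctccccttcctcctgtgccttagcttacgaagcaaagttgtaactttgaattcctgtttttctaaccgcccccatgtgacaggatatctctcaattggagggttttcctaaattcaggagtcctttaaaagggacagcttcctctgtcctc
The palindrome was found once in the window of Retnla and once in that of Pdcd1lg2, as TTCACAAGAA and TTCCTCAGAA, and not in the windows of Mrc1, Il4ra or Mgl2. Of all 32851 windows, 6.95% hold it. A match to GAGGAAG, a PU.1-type ETS motif held by 13.6% of windows, was found in Mrc1 and Retnla, on the minus strand. The AP-1 motif TGANTCA, held by 7.81% of windows, was found in none of the 5. A match is a description of letters and not of binding.

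The levels of the members spanned the range from not detected to abundant. Tgm2, Mrc1 and Il4ra were listed between 32.6 and 157 FPKM in every group, Arg1, Arg2 and Clec10a between 3.21 and 13.98 FPKM, and Mgl2, Pdcd1lg2 and Ccl24 at no more than 0.324 FPKM. Retnla was listed at 0 in all 5 groups, as were 23.5% of the genes in the table. So these BMDM held transcripts of the IL-4 receptor alpha chain and of the mannose receptor, and little or none of several transcripts by which IL-4-treated macrophages are recognised.

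**Figure D1:**
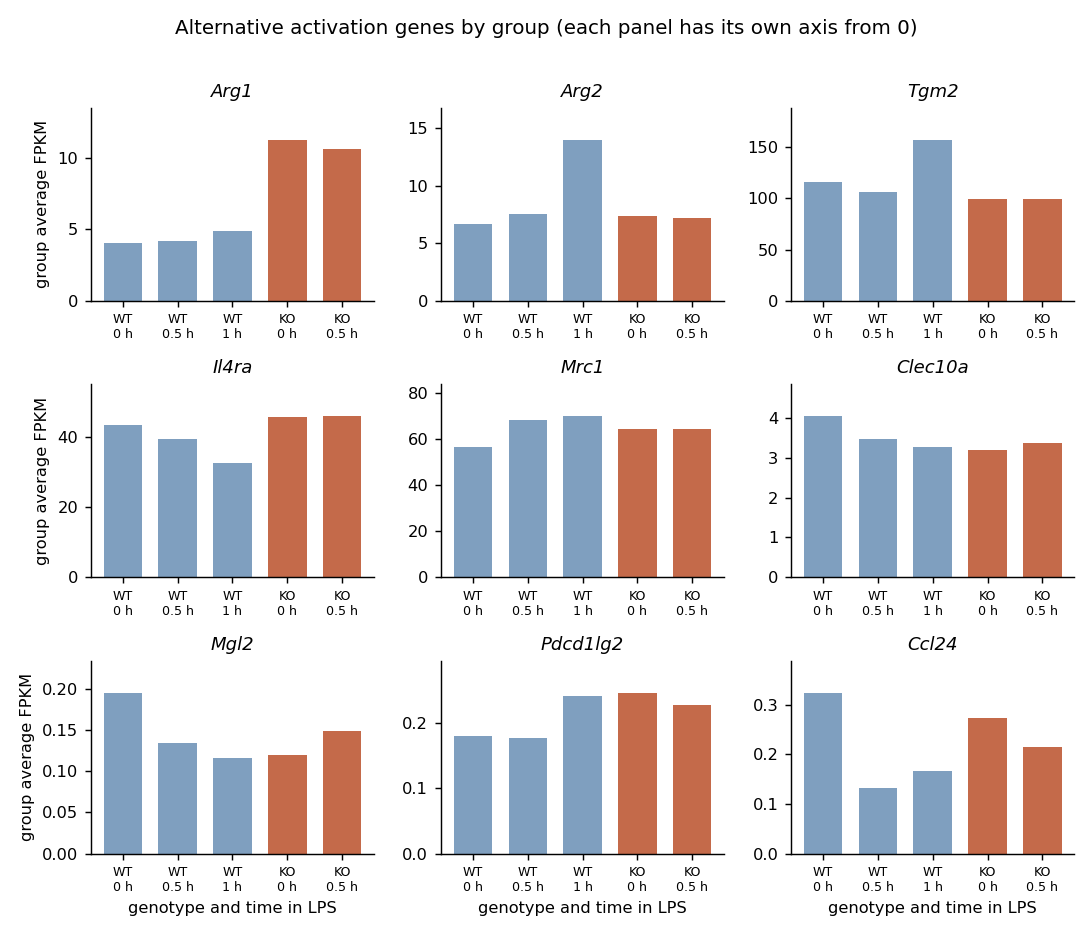
Group average FPKM of the 9 members with a value above 0, 1 panel per gene with its own axis from 0; blue bars are WT cells at 0, 0.5 and 1 h of LPS and red bars Nelfb KO cells at 0 and 0.5 h, without error bars because the table holds 1 average per group. Both red bars of Arg1 stand at 10.6 and 11.3 FPKM above blue bars of 4.03 to 4.88, and the 1 h bar is the tallest for Arg2 and Tgm2.

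Arg1 lies on the mouse genome build mm10 at chr10:24915207-24927470. Its FPKM was 4.03 in resting WT cells, 4.21 in WT cells at 0.5 h and 4.88 at 1 h, against 11.3 in resting Nelfb KO cells and 10.6 in Nelfb KO cells at 0.5 h. Both KO groups stood above all 3 WT groups with no overlap of the averages, whereas within each genotype the values lay close together. At rest the KO level was 2.79 times that of WT, or 2.44 times after adding 1 FPKM to both values (log2 ratio 1.29). At 0.5 h of LPS it was 2.52 times that of WT, or 2.23 times with 1 FPKM added (log2 ratio 1.15). Ordered by FPKM among all genes, Arg1 stood at place 8136 in resting WT cells and at place 5220 in resting KO cells, so it moved from a low to a moderate level and did not become an abundant transcript.

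LPS within these times was followed by little movement of Arg1. The log2 ratio to rest was 0.05 at 0.5 h and 0.22 at 1 h in WT cells, and -0.08 at 0.5 h in Nelfb KO cells. The difference between genotypes was thus present before LPS. The lowest KO value over the highest WT value gave a log2 gap of 0.98, which placed Arg1 ninth among the 11258 kept genes. The 8 genes with a wider gap were Mir3473f, Mir6990, Snord15b, Snora52 and the histone genes Hist2h2aa1, Hist2h2ac, Hist1h1c and Hist2h3c1. Among these 9, Arg1 is the sole protein-coding gene outside the histones. Mir3473f, at 0 in every WT group, and Hist2h3c1, at no more than 0.0641 FPKM in WT cells, passed the filter through the KO groups.

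Ratios in this table also varied with transcript length across genes. The median log2 ratio at rest was -0.22 for genes as long as Arg1, and the log2 ratio of Arg1 minus that median was 1.501 at rest and 1.10 at 0.5 h. The Arg1 difference was therefore as large or nearly as large with this trend removed.

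Arg2 is assigned a locus of chr12:79130788-79172458 by the authors' table. The level was 6.68 FPKM in resting WT cells, 7.56 at 0.5 h and 13.98 at 1 h, and at 7.39 and 7.19 FPKM in Nelfb KO cells at 0 and 0.5 h. The WT group at 1 h stood apart from the other 4, which lay between 6.68 and 7.56 FPKM. Its log2 ratio to resting WT was 0.96 (1.95 times with 1 FPKM added), and 1.23 relative to genes of similar length. Between genotypes the log2 ratio was 0.13 at rest and -0.06 at 0.5 h.

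The arginases thus followed different patterns. In WT cells the Arg1 level was 0.603 times that of Arg2 at rest and 0.349 times at 1 h, and in Nelfb KO cells it was 1.52 times at rest and 1.48 times at 0.5 h. Since FPKM is per length, this is a comparison of levels between genes. The 3' end of Arg2 overlaps Vti1b, a SNARE protein gene on the opposite strand, by 285 bases in GENCODE M21, and whether counting used strand is not given in the sources used here. In GENCODE M21 Arg2 ends at chr12:79156301 and Vti1b lies at chr12:79156017-79172667. The locus that the authors assigned to Arg2 therefore also covers most of Vti1b. Vti1b was listed at 78.0, 59.3 and 57.1 FPKM in WT cells at 0, 0.5 and 1 h and at 60.3 and 64.9 FPKM in KO cells. Its part in the Arg2 values was not tested.

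Tgm2 encodes transglutaminase 2, a protein crosslinking enzyme induced by IL-4 in mouse and human macrophages, at chr2:158116405-158146392. Its FPKM was 116, 106 and 157 in WT cells at 0, 0.5 and 1 h, and 99.1 and 99.7 in Nelfb KO cells at 0 and 0.5 h. Both KO averages were below all 3 WT averages, by a log2 ratio of -0.23 at rest and -0.09 at 0.5 h. The 1 h group was the highest, with a ratio of 1.35 to rest (log2 ratio 0.43), just short of the fold limit of 1.4 that the study used for higher genes.

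Il4ra encodes the receptor chain shared by IL-4 and IL-13 receptors, at chr7:125552282-125579474. It was listed at 43.4, 39.4 and 32.6 FPKM in WT cells at 0, 0.5 and 1 h, and at 45.7 and 45.9 FPKM in Nelfb KO cells. The WT values were lower at each later time (log2 ratio -0.14 at 0.5 h and -0.40 at 1 h), while in KO cells the log2 ratio after 0.5 h of LPS was 0.01 (-0.04 to 0.01 over the alternative settings). KO cells stood above WT cells by a log2 ratio of 0.07 at rest, which was -0.04 with the trend over length removed, and by 0.21 at 0.5 h.

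Mrc1 encodes CD206, the mannose receptor, at chr2:14229414-14332023. It was listed at 56.4, 68.1 and 69.7 FPKM in WT cells and at 64.4 and 64.2 FPKM in Nelfb KO cells, so the KO values lay within the WT range. Its highest group was 1.24 times its lowest. The microRNA Mir511, whose gene lies within Mrc1, was listed at 0 throughout.

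Clec10a, a receptor for galactose-type sugars, was the member of its pair with a measurable level, at chr11:70166623-70170836. It was listed at 4.05, 3.48 and 3.28 FPKM in WT cells and at 3.21 and 3.37 FPKM in Nelfb KO cells. The resting WT group was the highest and the other 4 lay close together. Mgl2, at chr11:70130357-70137542, was listed at 0.196, 0.134 and 0.116 FPKM in WT cells and at 0.120 and 0.149 FPKM in KO cells. Clec10a was 20.7 to 28.3 times as high as Mgl2, group by group, although the pair shares sequence.

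The remaining members were near the floor of the table. Retnla, which encodes RELM-alpha and is among the genes most strongly induced by IL-4 in mouse macrophages, was at 0 in all groups (chr16:48842552-48844461). Ccl24, the eosinophil attractant eotaxin-2 at chr5:135569937-135573043, was listed at 0.324, 0.133 and 0.166 FPKM in WT cells and at 0.274 and 0.216 FPKM in KO cells. Pdcd1lg2, which encodes the PD-1 ligand PD-L2 at chr19:29410919-29472927, was listed at 0.181, 0.176 and 0.242 FPKM in WT cells and at 0.246 and 0.227 FPKM in KO cells. Mgl2, Retnla, Ccl24 and Pdcd1lg2, the 4 members that did not pass the filter, were left out of the counts that follow, and no direction is read from their values.

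For the counts, a gene was called higher at a ratio of at least 1.4 and lower at a ratio of at most 0.6, after adding 1 FPKM to both averages; these are the fold limits of the study without its p-value. In resting Nelfb KO against WT cells, 1 of the 6 kept members (Arg1) was higher and 0 were lower, where 1.63% of all kept genes were higher and 3.61% lower. At 0.5 h of LPS, 1 of 6 (Arg1 again) was higher in KO cells and 0 were lower, against 2.03% and 1.36% of all kept genes. Since Arg1 was in the set because of its difference, nothing is read from these counts. The other 5 kept members had log2 ratios between -0.26 and 0.21 in both comparisons of genotypes, within the 5th to 95th percentile of all kept genes, which ran from -0.66 to 0.36 at rest and from -0.36 to 0.31 at 0.5 h.

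The same counts were made for LPS. In WT cells at 0.5 h, 0 of 6 were higher and 0 lower, against 1.09% and 2.07% of all kept genes. At 1 h, 1 of 6 (Arg2) was higher and 0 were lower, against 6.26% and 3.22%. In Nelfb KO cells at 0.5 h, 0 of 6 were higher and 0 lower, against 1.32% and 0.222%. Both KO averages were above all 3 WT averages for 2 of 6 members (Arg1 and Il4ra), as for 19.1% of all kept genes, and below them for 1 of 6 (Tgm2), as for 21.7%. Both KO averages were at least 1.4 times all 3 WT averages for 1 member, Arg1, and for 0.284% of all kept genes.

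**Figure D2:**
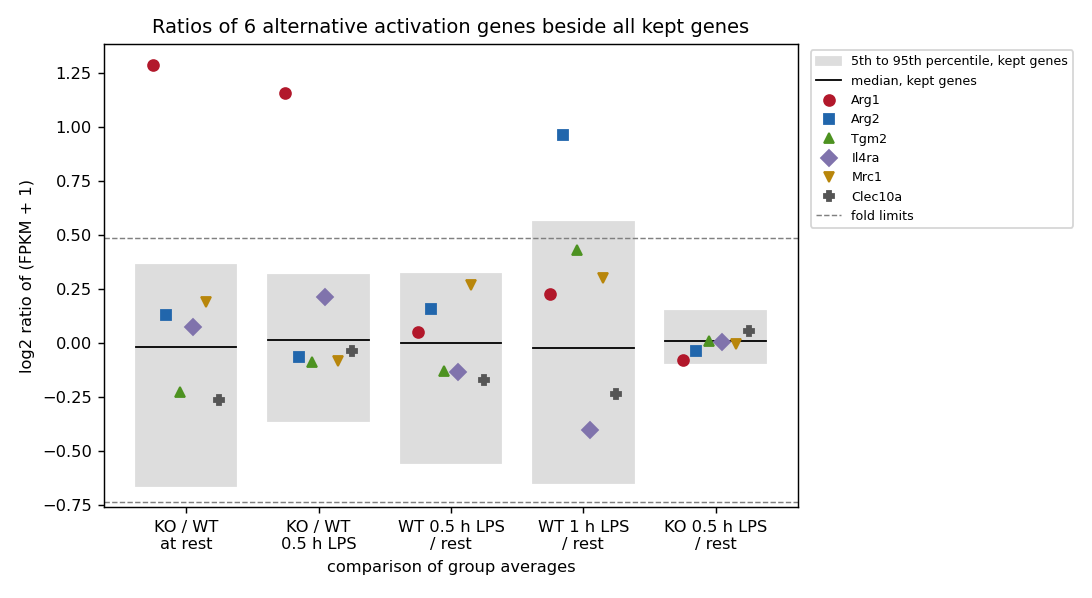
Log2 ratio of FPKM + 1 (vertical axis) of the 6 kept members in the 5 comparisons of group averages (horizontal axis); grey boxes span the 5th to 95th percentile of the 11258 kept genes, black lines are their medians, and dashed lines are the fold limits of 1.4 and 0.6. Arg1 lies at 1.29 and 1.15 in the comparisons of genotypes and Arg2 at 0.96 in WT cells at 1 h, and every other point lies between the dashed lines.

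**Figure D3:**
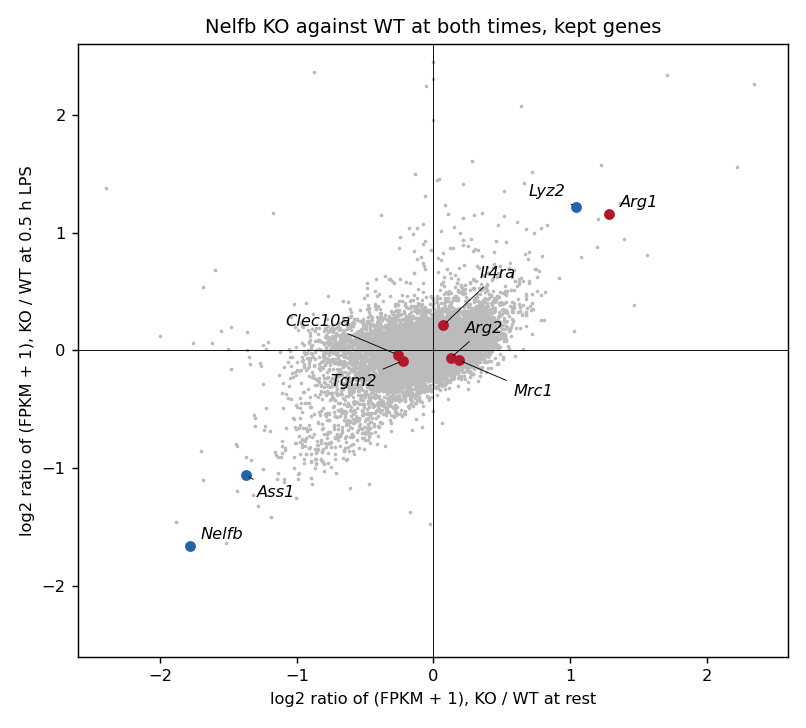
Log2 ratio of FPKM + 1 between Nelfb KO and WT cells at rest (horizontal axis) and at 0.5 h of LPS (vertical axis), with 1 grey point for each of 11177 kept genes (81 lie outside the axes), red points for the 6 kept members and blue points for Nelfb, Ass1 and Lyz2. Arg1 sits at 1.29 and 1.15, away from the other members, which lie in the central cloud.

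Arginase 1 acts at a branch of arginine metabolism, so the other genes of arginine and polyamine handling were described as a list of 17, of which 13 were kept. At rest, 0 of the 13 were higher in Nelfb KO cells and 1 was lower, Ass1, with a median log2 ratio of -0.21 beside -0.02 over all kept genes, of which 1.63% were higher and 3.61% lower. With a limit of 0.714 for lower genes, Srm (log2 ratio -0.63) and Asl (-0.51) also counted as lower, so that 1 became 3 of 13, beside 9.98% of all kept genes. At 0.5 h the log2 ratio between genotypes was -0.22 for Srm and 0.05 for Asl. Asl was listed at 32.6 FPKM in resting WT cells and at 22.7 to 23.9 FPKM in every other group. Ass1 encodes argininosuccinate synthase, which with argininosuccinate lyase, the product of Asl, rebuilds arginine from citrulline. The WT cells held 15.3, 12.8 and 13.7 FPKM of it and the KO cells 5.29 and 5.63 FPKM. Every WT average was above both KO averages, the reverse of Arg1, with log2 ratios of -1.37 at rest and -1.06 at 0.5 h. The Arg1 level was 0.263 times that of Ass1 in resting WT cells and 2.13 times in resting KO cells.

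At 0.5 h, 1 gene of the 13 was higher in KO cells (Sat1, which acetylates spermidine and spermine, at 293 against 436 FPKM) and 1 was lower (Ass1), with a median log2 ratio of -0.11 beside 0.01 over all kept genes, of which 2.03% were higher and 1.36% lower. With LPS, 0 were higher or lower at 0.5 h in either genotype, with medians of -0.10 in WT and 0.03 in KO cells beside -0.00 and 0.01 over all kept genes. At 1 h in WT cells 2 were higher, with a median of 0.06 beside -0.02, where 6.26% of all kept genes were higher. These were Odc1 and Amd1, which encode the decarboxylases for ornithine and S-adenosylmethionine at the entry to polyamine synthesis. Odc1 was listed at 30.9 FPKM at rest and 61.1 at 1 h, and Amd1 at 17.6 and 25.2. Amd1 fell short of the limit under median scaling, quantile normalization and removal of the length trend.

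Nos2, the inducible nitric oxide synthase that competes for arginine, reached at most 0.352 FPKM in any group, and the arginine transporter Slc7a2 at most 0.659 FPKM, so neither passed the filter. Slc7a1, also an arginine transporter, was kept, at 2.80, 3.05 and 3.63 FPKM in WT cells and at 1.86 FPKM in both KO groups. Its log2 ratio between genotypes was -0.41 at rest and -0.50 at 0.5 h. With the alternative limit for lower genes, Slc7a1 and Ass1 (2 of 13) were lower in KO cells at 0.5 h, beside 3.24% of all kept genes. That limit also made Asl lower in WT cells at 0.5 h of LPS (7.03% of all kept genes). The level of Arg1 was 14.5 times that of Nos2 in resting WT and 51.5 times in resting KO cells.

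**Figure D4:**
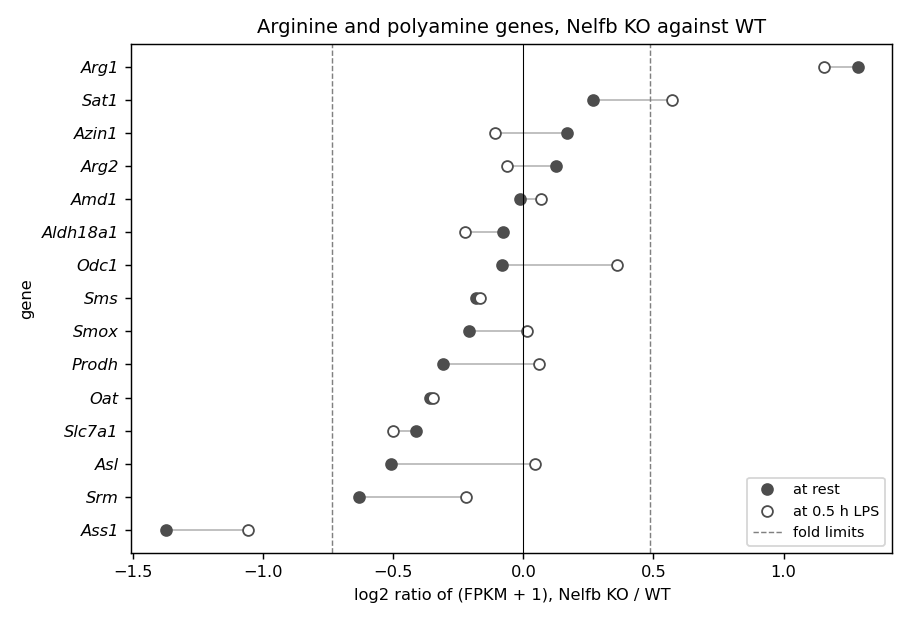
Log2 ratio of FPKM + 1 (horizontal axis) between Nelfb KO and WT cells for Arg1, Arg2 and the 13 kept genes of arginine and polyamine handling (vertical axis, ordered by the value at rest); filled points are at rest, open points at 0.5 h of LPS, and dashed lines the fold limits. Arg1 lies at the right (1.29 and 1.15) and Ass1 at the left (-1.37 and -1.06), both beyond the dashed lines at both times.

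Of 15 genes of IL-4 and IL-13 signalling, 12 were kept. The cytokine genes Il4 and Il13 reached at most 0.0899 and 0.0131 FPKM. In resting Nelfb KO cells 1 was higher, Il13ra1, and 0 lower, with a median log2 ratio of 0.12 beside -0.02 over all kept genes (1.63% higher). Il13ra1 encodes the chain that pairs with the IL-4 receptor alpha chain in the receptor for IL-13, and it was listed at 6.91, 7.81 and 8.42 FPKM in WT cells and at 10.9 and 10.3 FPKM in KO cells. Stat6 was nearly level, at 58.1, 59.6 and 61.1 FPKM in WT cells and at 60.1 and 58.9 FPKM in KO cells. Il2rg, the common gamma chain, was listed at 85.0, 90.8 and 104 FPKM in WT cells and at 70.3 and 70.8 FPKM in KO cells, within the limits. At 0.5 h, 0 were called in the comparison of genotypes (median 0.02 beside 0.01), in WT cells with LPS (0.11 beside -0.00) or in KO cells with LPS (-0.00 beside 0.01). With a pseudocount of 0.1, Irs2 and Cish passed the limit in resting KO cells and in WT cells at 0.5 h, and Cish in KO cells with LPS at 0.5 h. At that pseudocount 3.46%, 1.87% and 1.6% of all kept genes were higher in these comparisons, in that order. At 1 h in WT cells 3 were higher, with a median of 0.24 beside -0.02: Jak2, a Janus kinase, Irs2, an adaptor of the IL-4 receptor, and Cish, a feedback inhibitor (6.26% of all kept genes were higher). Jak2, at 9.53 FPKM at rest and 13.8 at 1 h, fell short of the limit under median scaling, quantile normalization and removal of the length trend.

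Among 12 transcription regulators tied to alternative activation, 11 were kept and 0 were called between resting genotypes, with a median log2 ratio of 0.07 beside -0.02. With the length trend removed, Tfec was higher in resting KO cells (log2 ratio 0.53), beside 2.72% of kept genes with a length. At 0.5 h of LPS, 3 of 11 were higher in Nelfb KO cells (Cebpb, the histone demethylase gene Kdm6b and the zinc finger factor gene Egr2), with a median of 0.10 beside 0.01 (2.03% of all kept genes were higher). Cebpb encodes C/EBP-beta, a regulator of the Arg1 enhancer in the mouse. Its FPKM was 84.8, 74.1 and 106 in WT cells and 89.2 and 132 in KO cells. Its part in the Arg1 difference was not tested. With LPS, 2 were higher in WT cells at 0.5 h (Myc and Egr2; median 0.10 beside -0.00), 5 at 1 h (Kdm6b, Myc, Egr2, Tfec and Bhlhe40; median 0.31 beside -0.02) and 4 in KO cells at 0.5 h (Cebpb, Kdm6b, Myc and Egr2; median 0.08 beside 0.01), and 0 were lower, where 1.09%, 6.26% and 1.32% of all kept genes were higher. These regulators also serve the LPS response, and Egr2 was listed at 1.51 FPKM in resting WT cells and 45.0 at 1 h.

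Of 20 other genes of alternative activation, 14 were kept, and 0 were called higher or lower in any of the 5 comparisons, where 1.09% to 6.26% of all kept genes were higher and 0.222% to 3.61% lower. That count of 0 depends on the limits. With a limit of 0.714 for lower genes, Trem2 and Folr2, which encode a lipid receptor and a folate receptor, were lower in resting KO cells (log2 ratio -0.62 and -0.54), where 9.98% of all kept genes passed. With that limit Ccl8, Trem2 and Matk were also lower in WT cells at 0.5 h, beside 7.03% of all kept genes. At 1 h Trem2 was lower in WT cells, beside 10.3% of all kept genes. Trem2 was at 944 FPKM in resting WT cells and at 579 to 620 FPKM in every other group. A pseudocount of 0.1 made Ear2 higher in KO cells at rest and at 0.5 h (3.46% and 3.09% of all kept genes higher). It also made Ccl22 higher and Vsig4 lower in KO cells at 0.5 h (2.66% lower), and Ccl22 higher in WT cells at 1 h (8.63% higher). Ear2 was again higher at rest with the length trend removed (2.72% of kept genes with a length). With quantile normalization Cd36 was higher than in resting WT cells in resting KO cells and in WT cells at 0.5 h and 1 h. Under that setting 2.92%, 1.48% and 5.96% of all kept genes were higher in these comparisons. The median log2 ratio of the list was -0.11 in resting KO against WT cells and 0.05 at 0.5 h beside -0.02 and 0.01 over all kept genes, and -0.06, 0.07 and 0.01 in the comparisons of LPS with rest (WT 0.5 h, WT 1 h and KO 0.5 h) beside -0.00, -0.02 and 0.01. Chil3, which encodes Ym1, was listed at 0.673 to 1.06 FPKM, and Cd163, a scavenger receptor for haemoglobin, at 0.548 to 0.775 FPKM.

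The genes of classical activation, a list of 15 with 11 kept, are described for comparison. At rest 1 was higher in Nelfb KO cells, Cd86, which encodes a costimulatory ligand, at 7.14 FPKM in WT and 10.6 in KO cells (median of the list 0.00 beside -0.02, with 1.63% of all kept genes higher). At 0.5 h, 6 were higher in KO cells, among them Il1b at 20.6 against 59.9 FPKM and Cxcl10 at 23.0 against 58.5 FPKM (median 0.50 beside 0.01, with 2.03% of all kept genes higher). With LPS, 5 of 11 were higher in WT cells at 0.5 h, 8 at 1 h and 5 in KO cells at 0.5 h, with medians of 0.01, 3.33 and 0.18 beside -0.00, -0.02 and 0.01, and 0 were lower. Of all kept genes, 1.09%, 6.26% and 1.32% were higher in these comparisons. Tnf was listed at 34.5, 302 and 1870 FPKM in WT cells at 0, 0.5 and 1 h and at 28.9 and 553 FPKM in KO cells, and thus differed widely between the times over which Arg1 lay between 4.03 and 4.88 FPKM.

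Pdcd1lg2 has a sister ligand for PD-1, encoded by Cd274 (PD-L1). Cd274 was listed at 33.7, 43.4 and 90.8 FPKM in WT cells at 0, 0.5 and 1 h and at 39.2 and 46.4 FPKM in Nelfb KO cells. It was called higher in 1 of the 5 comparisons, WT cells at 1 h (log2 ratio 1.402), and stood 159 to 375 times above Pdcd1lg2.

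The labelled cell type was checked against marker lists, with 7 of 8 neutrophil markers, 3 of 4 T cell markers and every marker of the other lists matched by symbol. All 8 macrophage markers were kept, among them Adgre1 (listed as Emr1) at 1209 to 1641 FPKM and Csf1r at 649 to 782 FPKM, and the list summed to 4308 to 5172 FPKM in WT cells and to 4727 and 4802 FPKM in KO cells. Mertk, an efferocytosis receptor, was called higher in resting KO cells (28.0 against 47.1 FPKM). For Adgre1, Csf1r and Mertk both KO averages stood above every WT average. Fcgr1 showed the reverse, with WT averages of 104, 86.7 and 86.6 FPKM and KO averages of 82.8 and 82.4 FPKM. The averages of Cd68, Itgam, Spi1 and Cd14 overlapped between the genotypes. The lists of basophil or mast cell, T cell and B cell markers summed to 0.165 to 1.35 FPKM in every group. Dendritic cell markers summed to 4.64 to 5.32 FPKM in WT cells and to 3.61 and 3.83 FPKM in KO cells, with Flt3, Zbtb46 and Clec9a at no more than 0.128 FPKM. Neutrophil markers summed to 75.3 to 102 FPKM in WT cells and to 124 and 135 FPKM in KO cells, nearly all of it S100a8. Mpo and Elane were at no more than 0.203 FPKM, and Ly6g was not matched. S100a8 was called higher in KO cells at 0.5 h, and with the length trend removed also at rest. Cxcr2 went the other way, at 1.29 to 1.36 FPKM in WT and 1.08 and 1.03 in KO cells, and Retnlg and Camp, both below the filter, were also lower in both KO groups than in all 3 WT groups. Eosinophil markers summed to 3.52 to 7.66 FPKM in WT cells and to 5.17 and 5.52 FPKM in KO cells. Among them, Ccr3 was at 2.35 to 5.97 FPKM and Epx at no more than 0.00614 FPKM. Ccr3 was called higher in KO cells at rest and at 0.5 h, but was highest in WT cells at 1 h. Prg2, the other kept marker, went the other way, at 0.754 to 1.28 FPKM in WT and 0.689 and 0.694 FPKM in KO cells. Siglecf (listed as Siglec5), below the filter, was also lower in both KO groups than in all 3 WT groups. Fibroblast markers, 3 of 4 kept with none called, summed to 11.4 to 14.03 FPKM in WT cells and to 14.2 and 14.9 FPKM in KO cells. S100a8 and the sum of the fibroblast list were thus higher in KO cells, as Arg1 was, and their part in its difference was not tested.

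The genes whose pattern was most like that of Arg1 were found by the root mean square distance of log2(FPKM + 1), after subtraction of each gene's own mean over the 5 groups. They were Hist2h3c1 (distance 0.0448), Hist1h1e (0.150), Hist1h1d (0.159), Lyz2 (0.195) and Hist2h2ac (0.202). Hist2h3c1 was listed at 0.000554, 0.00164 and 0.0641 FPKM in WT cells and at 1.31 and 1.17 FPKM in KO cells. It thus passed the filter through the KO groups, and its likeness to Arg1 rests on the added 1 FPKM. Histone genes of this kind make transcripts that mostly lack a poly(A) tail, and the libraries were enriched for poly(A). Lyz2 encodes lysozyme M and is the locus into which Cre was inserted. Lyz2 stood at 19.7, 23.3 and 28.5 FPKM in WT cells and at 41.6 and 55.5 FPKM in KO cells, so that a transcript of the Cre locus itself differed between the genotypes in the direction of Arg1. Its part in the Arg1 difference was not tested. For Arg2 the nearest genes were Clic4 (0.0202), Spred1 (0.0427), Gpr85 (0.0477), Rffl (0.0516) and Sgms1 (0.0561). Clic4, for example, was listed at 70.2, 80.4 and 136 FPKM in WT cells and at 76.8 and 74.4 FPKM in KO cells. With 5 averages per gene such likeness is a description.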

How the data were processed

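RNA-seq of 15 BMDM libraries in 5 groups of 3 was analysed, with groups taken from the labels. Expression is in FPKM, computed by the authors, who aligned paired-end reads of poly(A)-enriched libraries to mm10 with TopHat2 2.1.0, preserved uniquely mapped reads and ran Cuffdiff of Cufflinks 2.2.1 (CASAVA 1.8 is also named in the submitters' processing notes); the deposited table gives each gene 1 average for each group. Columns of the authors' own comparisons, holding ratios, p-values and q-values, were not used, nor were 3 repeated group columns. Values per library and depth per library were not analysed here, so counting precision is unknown and the linear model planned for single libraries was replaced by counts of genes past a fold limit.

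A gene was kept if its 5 group averages had a mean of 0.5 FPKM or more. Log2 ratios were taken after adding 1 FPKM, with ratios from 1.4 upward called higher and those from 0.6 downward called lower. Such ratios understate the difference of low genes. Summed over genes, the groups held 511973 to 615071 FPKM. The longest GENCODE M21 transcript gave a length for 11177 of the kept genes (99.3%), and a running median over 501 genes ordered by length was subtracted as an alternative. The other settings tried were quantile normalization, scaling by the group median, a limit of 0.714 for lower genes, adding 0.1 FPKM in place of 1, and dropping the filter or raising it to 1 FPKM. The calling script was tested on simulated data.

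The members and lists were chosen with earlier results of these data known. All 10 members were named, with up to 4 called genes per list and comparison of the largest log2 ratio, 9 genes named whatever their values (Nelfb, Stat6, Il2rg, Il13ra1, Chil3, Cd163, Nos2, Slc7a2 and Cd274), and the 5 genes nearest to each called member; further genes were chosen after their values were seen. Coding sequences came from GENCODE M21 and promoter windows from RefSeq (GRCm38.p6). Python 3.11.15, numpy 2.4.6, pandas 2.3.3, Biopython 1.88 and matplotlib 3.10.9 were used.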

Additional observations from a re-analysis of the deposited data

How the results depend on the processing

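The counts of members called higher or lower in the 5 comparisons stayed within 1.5 times of those reported under all 7 alternatives run (70 of 70 values), and Arg1 remained the member called in both comparisons of genotypes and Arg2 the one called in WT cells at 1 h. The log2 ratio of Arg1 ranged from 1.29 to 1.501 at rest and from 1.10 to 1.31 at 0.5 h, and that of Arg2 at 1 h from 0.93 to 1.23. Of 210 member log2 ratios, 6 moved by at least 0.2, all with the trend over transcript length removed: Arg1 to 1.501 and Arg2 to 0.35 in KO against WT cells at rest, Arg1 to 0.27 and Arg2 to 0.40 in WT cells at 0.5 h, and Arg1 to 0.46 and Arg2 to 1.23 in WT cells at 1 h. Changing the filter or the limit for lower genes cannot move the log2 ratio of a gene. The values under those settings, here and for the other genes below, were therefore fixed in advance. Among the genes of the other lists and the named loci, 56 of 1120 log2 ratios moved by that much; with a pseudocount of 0.1, Cish (0.61), Irs2 (0.58) and Ptgs2 (0.55) passed the limit in resting KO cells, Il12b (0.83) and Cd40 (0.51) in KO cells at 0.5 h, Cish (0.84), Irs2 (0.55) and Kdm6b (0.58) in WT cells with LPS for 0.5 h, and Cish (0.55) in KO cells with LPS. At that pseudocount 3.46%, 3.09%, 1.87% and 1.6% of all kept genes were higher in these comparisons, in that order. Among the 14 kept other genes of alternative activation, some were called with that pseudocount, quantile normalization, the limit of 0.714 or the length trend removed. At most 3 were called within 1 comparison. Sat1 passed at rest with quantile normalization (0.49) or the length trend removed (0.58), which also took Cd80 at 0.5 h below the limit (0.48). Removal of the length trend also took Tfec (0.53) and S100a8 (0.58) past the limit in resting KO cells and Cebpb (0.54) in WT cells at 1 h. Of kept genes with a length, 2.72% and 5.92% were then higher in these 2 comparisons. Across genes, the Spearman correlation of log2 ratio with transcript length was 0.452 at rest and -0.187 at 0.5 h between genotypes, and 0.617, 0.501 and -0.0865 for LPS against rest (WT 0.5 h, WT 1 h, KO 0.5 h); genes are not independent replicates, and the cause was not tested. No paired analysis was possible because the table holds group averages; leaving out a replicate and using the repeated group columns were likewise not run. Depth limits are unknown.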

Other observations

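S100a8 and S100a9 encode the subunits of calprotectin, usually made together. In these cells S100a8 was listed at 98.8, 72.5 and 79.0 FPKM in WT cells at 0, 0.5 and 1 h and at 122 and 133 FPKM in Nelfb KO cells, whereas S100a9 did not exceed 1.32 FPKM. Ccr3, the receptor for CCL24, was called higher in KO cells at rest (2.35 against 4.16 FPKM) and at 0.5 h (2.62 against 4.52 FPKM), and in WT cells at 1 h (5.97 FPKM). Both genes were chosen after their values were seen.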
